A study of Homo sapiens with 12 samples.

Results

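Expression of 10 genes of the complement system was followed in a human pancreatic cancer cell line, MIA PaCa-2, after knockdown of the RNA-binding proteins Musashi-1 (MSI1) and Musashi-2 (MSI2). The genes were the components C1R, C1S, C1RL, C3, CFB and CFD, the soluble inhibitor CFI and the membrane inhibitors CD46, CD55 and CD59. They are 10 of the 24528 genes in the count table, taken by symbol, and all 10 were among the 15021 genes that passed the filter on low counts. They were chosen by measured values of these libraries, several having risen in the single knockdowns and not in the double knockdown. Their changes against control and between the double and single knockdowns are therefore given as descriptions. No p is printed for them, and counts of the 10 past edgeR's threshold stand beside the share of all tested genes, with nothing read from them.

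Cells received lentiviruses carrying a scrambled control shRNA, an shRNA against MSI1 with a GFP tag, an shRNA against MSI2 with a Tomato Red tag, or both Musashi shRNAs. They were infected for 72 hours and then sorted on fluorescence, the double-knockdown cells as double-positive cells. The labels leave out the tag and gate of the control cells and the number of hairpins per gene. RNA was sequenced in 12 libraries, 3 for each of the 4 groups. Nothing says whether the 3 were separate cultures, and p-values then speak of the spread between these samples alone, which may be technical. Library totals ran from 10948191 to 56122207 estimated counts, the lowest in control replicate 3. MSI1 stood at 4.53 ± 0.40 CPM (counts per 1000000 counts of the scaled library, mean ± SD, n = 3) in control, 1.84 ± 0.19 under Msi1 knockdown and 1.71 ± 0.28 in the double knockdown beside 6.14 ± 0.82 under Msi2 knockdown. MSI2 was at 82.7 ± 3.1 CPM in control, 53.98 ± 2.28 under Msi1 knockdown, 14.97 ± 2.36 under Msi2 knockdown and 11.8 ± 0.6 in the double. MSI2 was thus also lower under Msi1 knockdown (log2 -0.61, edgeR adjusted p = 6.82e-06), and MSI1 higher under Msi2 knockdown (0.41, 0.0244). The MSI1 call was lost with libraries thinned to the smallest total and without control replicate 2 or 3 or Msi2 knockdown replicate 1. Single knockdown below refers to the shRNA received. Of 6 epithelial markers, the keratins KRT8 and KRT18 were abundant, with means from 1169 to 1628 CPM across the groups. KRT19 had group means from 46.3 to 77.2 CPM. EPCAM and KRT7 stayed under 1 CPM in every library, and CDH1 had group means from 0.29 to 0.61 CPM.

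Complement is a cascade of plasma and membrane proteins that marks surfaces for removal or lysis. The proteases C1r and C1s start the classical pathway, factor D cleaves factor B to form the convertase of the alternative pathway, and both routes cleave C3, whose fragments attach to the surface. Host cells limit this with inhibitors such as factor I, which cuts C3b and C4b, CD46, its membrane cofactor, CD55, which dissociates convertases, and CD59, which blocks the lytic pore. The liver makes most plasma complement, but epithelial tumour cells can transcribe components of their own.

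The components that were higher in 1 or both single knockdowns include the neighbouring genes C1S, C1R and C1RL. They follow one another on chromosome 12 of the RefSeq assembly GRCh38.p14 with no other protein-coding gene between them, whereas CFB lies on chromosome 6 and C3 on chromosome 19. RefSeq promoter windows (GRCh38.p14) were at hand for 8 of the 10 genes, 13 windows in all. C3 and C1S had no window, so the motif counts leave them out. The 250 bases before the start sites of C1R, C1RL and CFB are shown because, among the components that had a window and were higher under Msi1 knockdown, these are the ones with a motif match. C1R has a pair of annotated start sites, and the window shown is the one with a motif match. They are written 5′ to 3′ on the gene's strand, with capitals at the matches listed after them.
C1R (chr12:7091894-7092143, minus strand): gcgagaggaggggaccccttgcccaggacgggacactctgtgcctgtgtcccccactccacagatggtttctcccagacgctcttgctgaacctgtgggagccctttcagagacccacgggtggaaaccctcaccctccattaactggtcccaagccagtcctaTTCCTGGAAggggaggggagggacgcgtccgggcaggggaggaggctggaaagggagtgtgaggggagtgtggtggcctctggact
C1RL (chr12:7109215-7109464, minus strand): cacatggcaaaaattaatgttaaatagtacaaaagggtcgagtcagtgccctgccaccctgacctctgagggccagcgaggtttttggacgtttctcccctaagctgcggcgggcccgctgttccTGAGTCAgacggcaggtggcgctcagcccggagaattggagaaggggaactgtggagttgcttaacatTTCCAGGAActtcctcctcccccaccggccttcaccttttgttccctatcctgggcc
CFB (chr6:31945845-31946094, plus strand): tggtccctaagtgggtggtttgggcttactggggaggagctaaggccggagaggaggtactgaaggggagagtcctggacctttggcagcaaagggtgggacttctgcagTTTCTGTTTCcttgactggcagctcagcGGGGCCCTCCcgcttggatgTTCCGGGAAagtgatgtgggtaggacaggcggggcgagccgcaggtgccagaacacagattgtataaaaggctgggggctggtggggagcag
Capitals mark the GAS motif TTCNNNGAA, bound by STAT factors, as TTCCTGGAA in C1R, TTCCAGGAA in C1RL and TTCCGGGAA in CFB. In C1RL they also mark the AP-1 motif TGANTCA as TGAGTCA. In CFB they also mark the ISRE (interferon-stimulated response element) motif, matched on the other strand, which reads here as TTTCTGTTTC, and a match to the NF-kB consensus, GGGGCCCTCC. Both strands were searched, and none of these matches overlapped another.

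The GAS motif was found in 5 of the 13 windows, in 4 of the 8 genes (C1R, C1RL, CFB and CD59), and in 6.57% of all 35116 RefSeq promoter windows of that length. A pair of overlapping CD59 windows hold the same match. The ISRE motif was in the CFB window alone of the 13 (3.02% of all windows), as was the NF-kB consensus (9.96% of all windows). AP-1 matches lay in windows of C1RL and CD59 (6.57% of all), and the C/EBP motif TTGCNNCAA in none of the 13 (1.62% of all). A match describes letters in the window and does not show a bound site.

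C1R and C1S encode the paired serine proteases of the C1 complex. C1R was at 13.7, 15.4 and 12.8 CPM in control, 30.8, 39.8 and 38.1 under Msi1 knockdown, 21.6, 22.9 and 22.5 under Msi2 knockdown, and 17.8, 14.6 and 18.3 in the double knockdown. Every library of each single knockdown lay above every control library, and the double-knockdown libraries overlapped control. The log2 change of C1R was 1.36 ± 0.10 (± standard error throughout) under Msi1 knockdown, 0.66 ± 0.10 under Msi2 knockdown and 0.26 ± 0.10 in the double knockdown. C1S was at 24.2, 27.9 and 21.9 CPM in control, 48.7, 57.6 and 58.0 under Msi1 knockdown, 34.9, 39.0 and 33.5 under Msi2 knockdown, and 29.04, 24.6 and 31.0 in the double knockdown. It followed the same order, with log2 changes of 1.13 ± 0.10, 0.52 ± 0.10 and 0.18 ± 0.10.

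The ratio of C1R to C1S, each as CPM per kilobase of its longest GENCODE 29 transcript, was 0.498 ± 0.012 in control, 0.580 ± 0.026 under Msi1 knockdown, 0.550 ± 0.037 under Msi2 knockdown and 0.527 ± 0.012 in the double knockdown (mean ± SD, n = 3). Every library of each knockdown lay above the highest control library, 0.511. Over the 12 libraries the log2 CPM of these genes had a Pearson's r of 0.99, a description over libraries that fall into 4 groups.

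C1RL encodes a C1r-like protease and lies next to C1R. It was at 31.3, 33.5 and 28.5 CPM in control, 45.6, 52.9 and 53.3 under Msi1 knockdown, 33.2, 39.1 and 32.3 under Msi2 knockdown, and 25.9, 26.3 and 28.1 in the double knockdown. The Msi1 libraries were all above the other 9, the Msi2 libraries overlapped control, and the double-knockdown libraries were all below control. Its log2 changes were 0.69 ± 0.08, 0.16 ± 0.08 and -0.23 ± 0.08. The ratio of C1RL to C1R per kilobase was 2.30 ± 0.06 in control and lower in every knockdown library, with group means of 1.45 ± 0.08, 1.61 ± 0.14 and 1.65 ± 0.19 in the Msi1, Msi2 and double knockdowns.

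C3, the protein on which the pathways converge, was at 5.66, 6.57 and 6.29 CPM in control, 10.998, 12.8 and 13.9 under Msi1 knockdown, 9.39, 11.3 and 9.11 under Msi2 knockdown, and 6.43, 5.71 and 6.45 in the double knockdown. The single-knockdown libraries were all above control and overlapped each other, while the double-knockdown libraries lay within the control range. The log2 change was 1.03 ± 0.11 and 0.70 ± 0.11 in the Msi1 and Msi2 knockdowns and 0.02 ± 0.12 in the double knockdown.

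CFB, the catalytic subunit of the alternative C3 convertase, was at 6.50, 6.90 and 4.76 CPM in control, 14.3, 17.9 and 17.5 under Msi1 knockdown, 14.2, 16.5 and 13.0 under Msi2 knockdown, and 9.03, 7.58 and 10.5 in the double knockdown. Both single knockdowns were above all libraries of the double, which was itself above all control libraries. The log2 changes were 1.39 ± 0.14, 1.21 ± 0.14 and 0.51 ± 0.14. Per kilobase, the ratio of CFB to C3 was 1.81 ± 0.37 in control and from 2.43 ± 0.14 to 2.70 ± 0.09 as group means in the knockdowns, so CFB had the larger rise relative to control in each of the 3.

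CFD, the protease that activates factor B, took another order. It ranged from 2.07 to 3.22 CPM in control, 2.91 to 3.15 under Msi1 knockdown, 3.08 to 4.40 under Msi2 knockdown, with the double knockdown at 4.72 to 4.90. The double-knockdown libraries were all above the other 9, with a log2 change of 0.83 ± 0.15 against control, 0.48 ± 0.15 under Msi2 knockdown and 0.16 ± 0.16 under Msi1 knockdown. CFI, the inhibitory protease, was scarce, with 5 to 48 counts per library. It ranged from 0.39 to 0.59 CPM in control, 0.60 to 1.21 under Msi1 knockdown, 0.55 to 0.65 under Msi2 knockdown, with the double knockdown at 0.16 to 0.49, and its log2 changes of 0.97 ± 0.35, 0.32 ± 0.36 and -0.49 ± 0.40 have the widest errors of the 10.

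**Figure D1:**
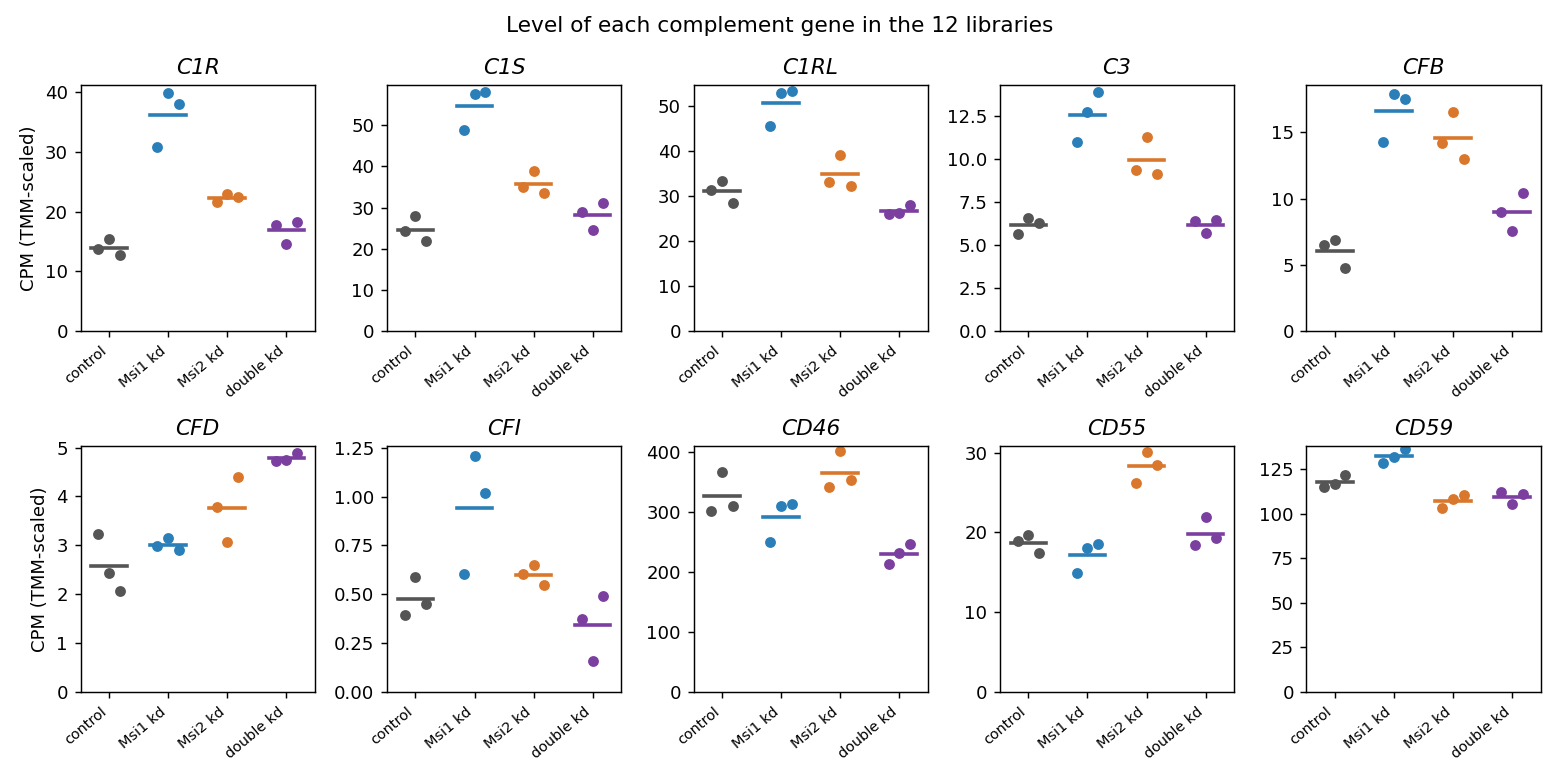
Level of each of the 10 complement genes in CPM (vertical axes, linear from 0) in the 12 libraries, 3 points per group with the group mean as a horizontal line. C1R, C1S, C3 and CFB are higher in both single knockdowns (kd) than in control, CFD is highest in the double knockdown, and CD55 is highest under Msi2 knockdown.

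The membrane inhibitors took other orders again. CD55 was at 18.9, 19.7 and 17.4 CPM in control, 14.9, 18.1 and 18.5 under Msi1 knockdown, 26.2, 30.1 and 28.5 under Msi2 knockdown, and 18.4, 21.9 and 19.3 in the double knockdown. The Msi2 libraries were all above the other 9, and the remaining groups overlapped. The log2 change of CD55 was 0.59 ± 0.09 under Msi2 knockdown, -0.14 ± 0.09 under Msi1 knockdown and 0.07 ± 0.09 in the double.

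CD46 ranged from 303 to 368 CPM in control, 251 to 314 under Msi1 knockdown, 342 to 401 under Msi2 knockdown, with the double knockdown at 214 to 247. The double-knockdown libraries were below all others, and the log2 changes were -0.17 ± 0.09, 0.16 ± 0.09 and -0.50 ± 0.09 in the Msi1, Msi2 and double knockdowns. CD59 ranged from 115 to 121 CPM in control, 128 to 136 under Msi1 knockdown, 103 to 110.4 under Msi2 knockdown, with the double knockdown at 105 to 112, and its log2 changes were 0.17 ± 0.06, -0.13 ± 0.06 and -0.10 ± 0.06.

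Between genes, levels were compared per kilobase of the longest transcript. In control cells CD46 was the highest at 41.8 ± 4.5 CPM per kilobase, followed by CD59 at 15.4 ± 0.5, C1RL at 9.16 ± 0.73, C1S at 8.02 ± 0.98, CD55 at 6.46 ± 0.40, C1R at 3.99 ± 0.39, CFD at 2.14 ± 0.49, CFB at 2.12 ± 0.40, C3 at 1.17 ± 0.09 and CFI at 0.20 ± 0.04. Neighbours within 1 SD of each other in this order were CFD and CFB alone. The membrane inhibitors CD46 and CD59 thus stood above each component in control cells. Under Msi1 knockdown C1S reached 17.8 ± 1.7, beside CD59 at 17.3 ± 0.5 CPM per kilobase.

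Counted by edgeR's adjusted p, 7 of the 10 were higher under Msi1 knockdown (C1R, C1S, C1RL, C3, CFB, CFI and CD59) and 0 lower, beside 18.5% of all tested genes called higher and 20.9% lower (39.3% in either direction). Under Msi2 knockdown 6 were higher (C1R, C1S, C3, CFB, CFD and CD55) and 0 lower, beside 16.7% and 13.6% of all tested genes (30.3% in either direction). In the double knockdown 3 were higher (C1R, CFB and CFD) and 2 lower (C1RL and CD46), beside 26.6% and 25.3% (51.9% in either direction). By overlap alone, all libraries of the Msi1 knockdown were above control for 7 of the 10 and below for 0 (22.7% and 24.4% of all tested genes), those of the Msi2 knockdown for 5 and 1 (20.8% and 17.9%), and those of the double for 2 and 3 (30.8% and 28.9%). The median log2 change of the 10 was 0.83, 0.50 and 0.04 in the same order, and that of all tested genes lay between -0.015 and -0.0018 in each. These counts come from the comparisons that chose the genes, which also share their control libraries.

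The stated pattern, higher in both single knockdowns and not higher in the double, was met by C3 and C1S, 2 of the 10, beside 1.74% of all tested genes. C1R and CFB were higher in both single knockdowns and to a lesser degree in the double. Several of the smaller calls lay near the threshold and changed when any 1 of several libraries was left out. C1R in the double knockdown was no longer called without control replicate 1 (log2 0.23) or 3 (0.21), without double knockdown replicate 1 (0.22) or 3 (0.19), or without Msi2 knockdown replicate 2 (0.24), and then met the stated pattern too. CFB in the double knockdown was no longer called with libraries thinned to the smallest total (0.30), and then met it as well. C1S in the double knockdown was called higher without double knockdown replicate 2 (0.25), and then no longer met it. The CFI call under Msi1 knockdown was lost without control replicate 1 or 3 or Msi1 knockdown replicate 2 or 3 (log2 0.73 to 0.96), and that of CD59 without control replicate 1 or 2 or Msi1 knockdown replicate 2 or 3 (0.16 to 0.18). The CFD call under Msi2 knockdown was lost without control replicate 2 or 3 or Msi2 knockdown replicate 1 or 3 (0.34 to 0.47), and the C1RL call in the double knockdown without control replicate 1 or 2 or double knockdown replicate 1 or 2 (-0.23 to -0.19). CD59 was called lower under Msi2 knockdown with DESeq2 (-0.14) and with thinned libraries (-0.20).

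**Figure D2:**
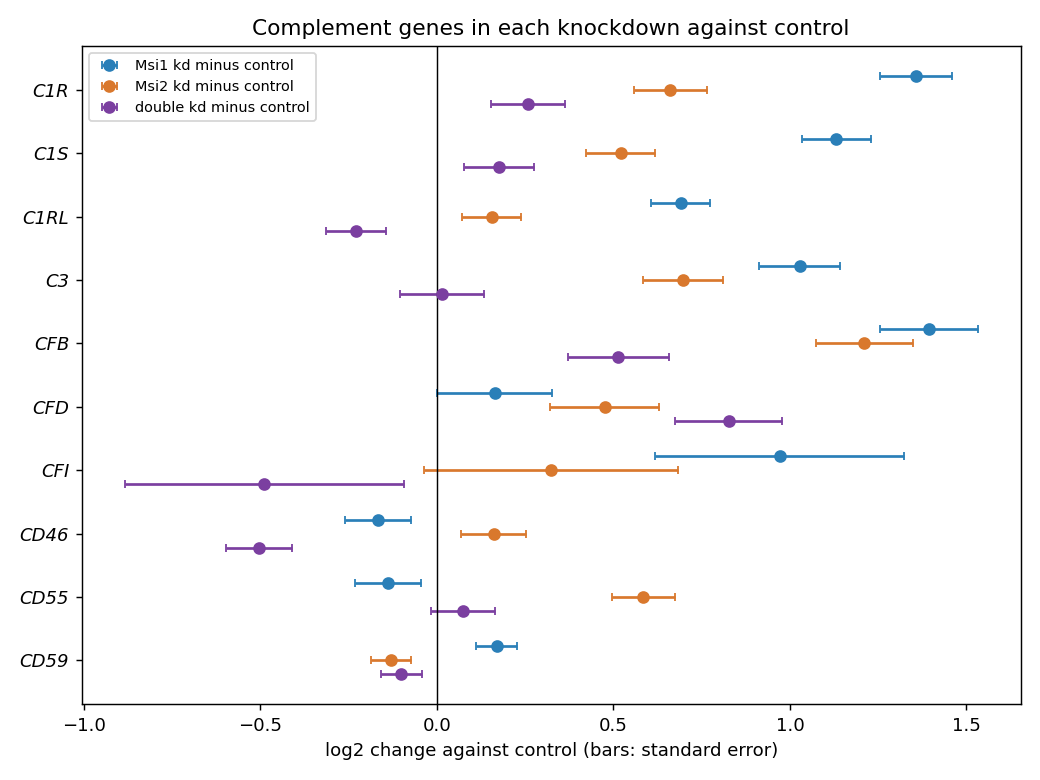
Log2 change of each complement gene against control (horizontal axis) in the Msi1, Msi2 and double knockdowns, points with standard errors from edgeR. For C1R, C1S, C1RL, C3 and CFB the double-knockdown point lies left of both single-knockdown points, and for CFD it lies right of both.

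Set against the single knockdowns, the double knockdown was lower for most of the 10. Against the Msi1 knockdown 8 were lower and 2 higher (CFD and CD55), beside 26.2% and 29.9% of all tested genes (56% in either direction). All double-knockdown libraries were below the Msi1 libraries for 8 and above them for 1, CFD, beside 29.7% and 33.9%. The CD55 libraries overlapped, and its call (0.21 ± 0.09) was lost without any 1 of 9 libraries (0.12 to 0.24), the exceptions being Msi1 knockdown replicate 3, Msi2 knockdown replicate 3 and double knockdown replicate 1. The log2 differences were -1.01 ± 0.10 for C3, -1.10 ± 0.10 for C1R, -0.96 ± 0.09 for C1S, -0.92 ± 0.08 for C1RL and -0.88 ± 0.12 for CFB. Against the Msi2 knockdown 7 were lower and 1 higher (CFD), beside 22.5% and 22.7% of all tested genes (45.2% in either direction), and the libraries did not overlap for 8 lower and 1 higher (27.7% and 27.8%). The log2 differences included -0.68 ± 0.10 for C3, -0.70 ± 0.12 for CFB, -0.67 ± 0.09 for CD46 and -0.51 ± 0.08 for CD55. The CFD call (0.35 ± 0.13) was lost without any 1 double knockdown replicate or Msi2 knockdown replicate 1 or 2 (0.21 to 0.36). That call was also lost under DESeq2 (0.36), with thinned libraries (0.08), with a correction for transcript length (0.22) and with the library trend described below as a covariate (0.06).

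Non-additivity is what remains when both single-knockdown log2 changes are subtracted from that of the double knockdown. It was negative for 9 of the 10 and positive for CFD (0.19 ± 0.21). It was -2.09 ± 0.18 for CFB, -1.76 ± 0.14 for C1R, -1.71 ± 0.15 for C3, -1.48 ± 0.14 for C1S and -1.07 ± 0.12 for C1RL. Of the 10, 8 were past the threshold as lower (all but CFD and CD59), beside 19.1% of all tested genes called lower and 21.3% higher (40.3% in either direction). These values describe the pattern for which the genes were chosen.

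The double-knockdown libraries also stood apart on a library trend. Its gene weights came from the first component of the deviations from the group means, which held 54.1% of the variance within groups. Each library was scored on these weights by its distance from the mean over all libraries, so the scores include differences between groups. They ran from -1.54 to -1.06 in the double knockdown against -0.39 to 1.38 in the other 9 libraries. With that score as a covariate the C3 change in the double knockdown was 0.32 ± 0.12, that of C1S 0.44 ± 0.09 and that of C1RL 0.024 ± 0.073, and 6 of the 10 were then called higher and 1 lower, beside 5830 of 15021 genes called in either direction. C3, C1S, C1R and CFB were among those called higher, so none of the 10 met the stated pattern in that fit. Under Msi1 knockdown 6 were called higher and 2 lower (CD46 at -0.36 and CD55 at -0.26), and CFI was no longer called (0.58), beside 6430 of 15021. CD59 was then called lower under Msi2 knockdown (-0.13). Against the Msi1 knockdown the double was then lower for 4 of the 10 and higher for 1, beside 718 of 15021, and against the Msi2 knockdown lower for 3 and higher for 0, beside 2697. The difference from the Msi2 knockdown went from -0.35 to -0.029 for C1S and from -0.38 to -0.079 for C1RL. The non-additivity of C3, C1R, C1S, C1RL and CFB stayed negative, that of CFD went to -0.24 ± 0.29, and 5 of the 10 were called lower, while the calls over all tested genes went from 6058 to 592. The trend and the double-knockdown group cannot be told apart with these libraries. The double-knockdown libraries also had the lowest slopes of log2 CPM, taken relative to each gene's mean, on log2 transcript length. These slopes were -0.146 to -0.075, against -0.025 to 0.079 in the other 9 libraries. A correction for transcript length left 3 of the 10 higher and 2 lower in the double knockdown against control, beside 7568 of 15021. Against the Msi1 knockdown it left 6 lower and 2 higher, beside 8602, with CD46 (-0.18) and CD59 (-0.11) no longer called. Against the Msi2 knockdown it left 8 lower and 1 higher, beside 6477. There CFI was then called lower (-0.82) and CD59 higher (0.19), and CFD was no longer called (0.22).

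**Figure D3:**
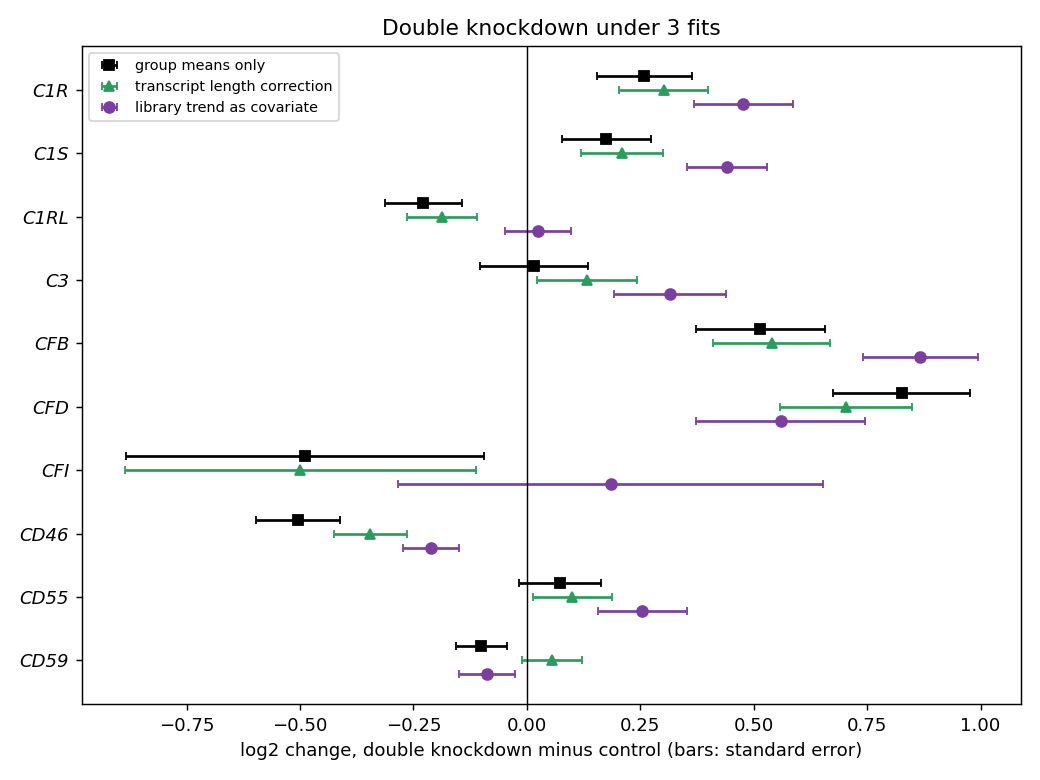
Log2 change of each complement gene in the double knockdown against control (horizontal axis, with standard errors) under 3 fits: group means alone, a transcript length correction, and the library trend as a covariate. With the trend covariate the points of C3, C1S and CD55 lie right of 0 by more than their standard errors, whereas the length correction moves those 3 by less.

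The difference between the single knockdowns was not named in the stated choice of the genes, and it was tested. It uses the same single-knockdown values that the choice used, so its p-values are not independent of that choice. The membrane inhibitors CD55 and CD46 were higher under Msi2 than under Msi1 knockdown, by log2 0.72 ± 0.09 (edgeR adjusted p = 2.01e-06) and 0.33 ± 0.09 (0.00775), with no overlap between libraries. The classical-pathway proteases were lower under Msi2 knockdown, C1R by a log2 difference of -0.70 ± 0.09 (adjusted p = 7.57e-06) and C1S by -0.61 ± 0.09 (2.78e-05), again with no overlap. The C1r-like protease C1RL was lower by -0.54 ± 0.08 (adjusted p = 2.48e-05), with no overlap either. CD59 was lower by -0.30 ± 0.06 (adjusted p = 2.88e-04), also with no overlap, and C3 by -0.33 ± 0.10 (0.0123), with overlap.

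In all, 2 of the 10 were higher and 5 lower in this comparison, beside 22.3% and 18.9% of all tested genes (41.1% in either direction). The libraries did not overlap for 2 higher and 4 lower, beside 25.5% and 22.1%. CFB (-0.18 ± 0.12, edgeR adjusted p = 0.228), CFI (-0.65 ± 0.30, 0.0913) and CFD (0.31 ± 0.14, 0.0878) did not pass. The C3 call was lost without Msi1 knockdown replicate 3 (adjusted p = 0.0534) or Msi2 knockdown replicate 3 (0.0601). CFD passed without Msi2 knockdown replicate 2 (0.44, adjusted p = 0.0162), and CFI without Msi1 knockdown replicate 1 (-0.89, 0.0185). With thinned libraries CFB passed (-0.39, adjusted p = 0.0244), as did CFD (0.62, 0.0351), which also passed with the length correction (0.37, 0.0339).

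**Figure D4:**
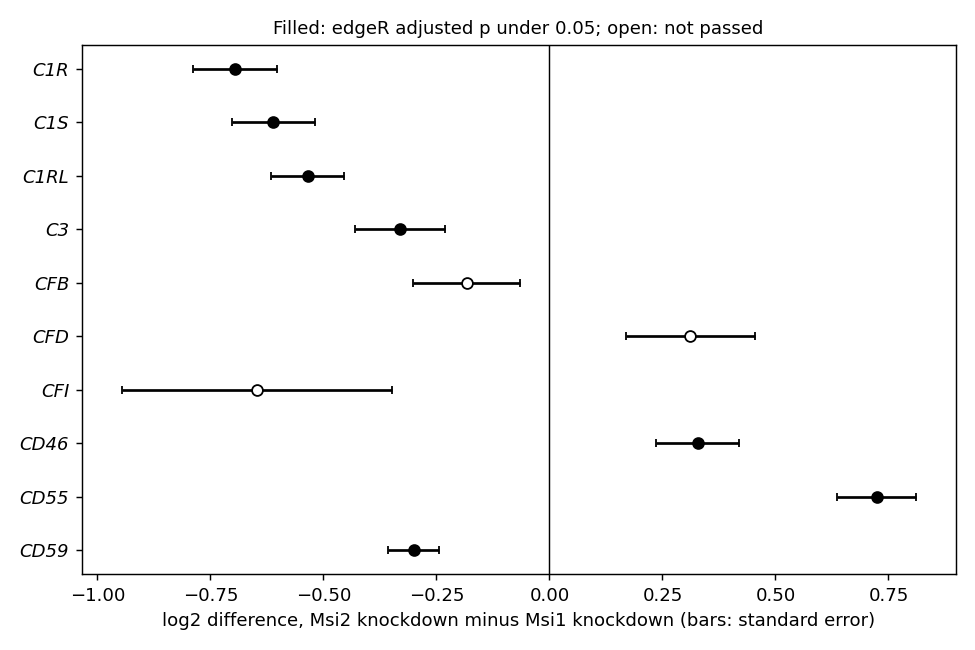
Log2 difference of each complement gene between the Msi2 and the Msi1 knockdown (horizontal axis, Msi2 minus Msi1) with standard errors, filled where the edgeR adjusted p was under 0.05. CD55 and CD46 lie right of 0, and C1R, C1S, C1RL, C3 and CD59 left of it.

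Another 48 complement genes were examined for the rest of the cascade. Of these, 27 passed the filter on low counts and 21 did not, and 5 had no count in any library (FCN2, MBL2, C8A, C8B and CFHR4, which encode lectin-pathway recognition proteins, C8 chains and a factor H-related protein). Under Msi1 knockdown 5 of 27 rose and 0 fell, beside the 18.5% and 20.9% of all tested genes. They were MASP2, the lectin-pathway protease (1.70 ± 0.28 to 3.12 ± 0.63 CPM, log2 0.93 ± 0.21, edgeR adjusted p = 0.00152), the terminal component C7 (3.12 ± 0.07 to 5.09 ± 0.80 CPM, 0.69 ± 0.14, 7.02e-04), the inhibitor clusterin, CLU (49.4 ± 0.9 to 63.01 ± 6.13 CPM, 0.35 ± 0.07, 8.94e-04), the integrin chain ITGAX (log2 1.11 ± 0.30, 0.00635) and C4A (0.66 ± 0.25, 0.0449). The libraries of the Msi1 knockdown and control did not overlap for the first 4 of these. ITGAX lost its call without control replicate 1 (adjusted p = 0.0954) and with thinned libraries (0.0673). C4A, whose near-identical copy C4B makes its count uncertain, lost its call without control replicate 1 (0.209) or control replicate 3 (0.106). The C4A call was also lost without Msi1 knockdown replicate 2 (0.221), Msi2 knockdown replicate 3 (0.0526) or double knockdown replicate 3 (0.0536). It was lost as well with the trend covariate (0.236) and without the low-count filter (0.0893).

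Under Msi2 knockdown 1 of 27 fell and 0 rose, beside 13.6% and 16.7% of all tested genes. That gene was C5, the precursor of the C5a fragment and of the lytic pore's first unit, which went from 18.2 ± 1.4 to 14.6 ± 0.2 CPM (log2 -0.31 ± 0.07, edgeR adjusted p = 0.00333). In the double knockdown 1 of 27 rose and 6 fell, beside 26.6% and 25.3% of all tested genes. C1QBP, a mitochondrial protein that also binds C1q, rose from 323 ± 10 to 449.99 ± 18.5 CPM (0.48 ± 0.07, adjusted p = 1.92e-05). C5 fell to 14.2 ± 0.6 CPM (-0.36 ± 0.07, 5.49e-04), MASP2 to 1.03 ± 0.05 CPM (-0.68 ± 0.23, 0.0196) and the collectin COLEC11 from 1.94 ± 0.87 to 0.95 ± 0.08 CPM (-0.89 ± 0.29, 0.0143).

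VTN and CR2 also fell in the double knockdown, were under 1 CPM in every group and are named here after their values were seen. The MASP2 fall was lost without control replicate 2 (adjusted p = 0.0942) or double knockdown replicate 1 (0.0621), with thinned libraries (0.0696) and with the trend covariate (log2 -0.13, 0.775). That of COLEC11 was lost without control replicate 1 (0.0534) or 3 (0.0616) and with thinned libraries (0.143). Over the 27 genes the median log2 change was 0.35 for Msi1, -0.11 for Msi2 and -0.16 for the double knockdown, beside medians of all tested genes between -0.015 and -0.0018.

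**Figure D5:**
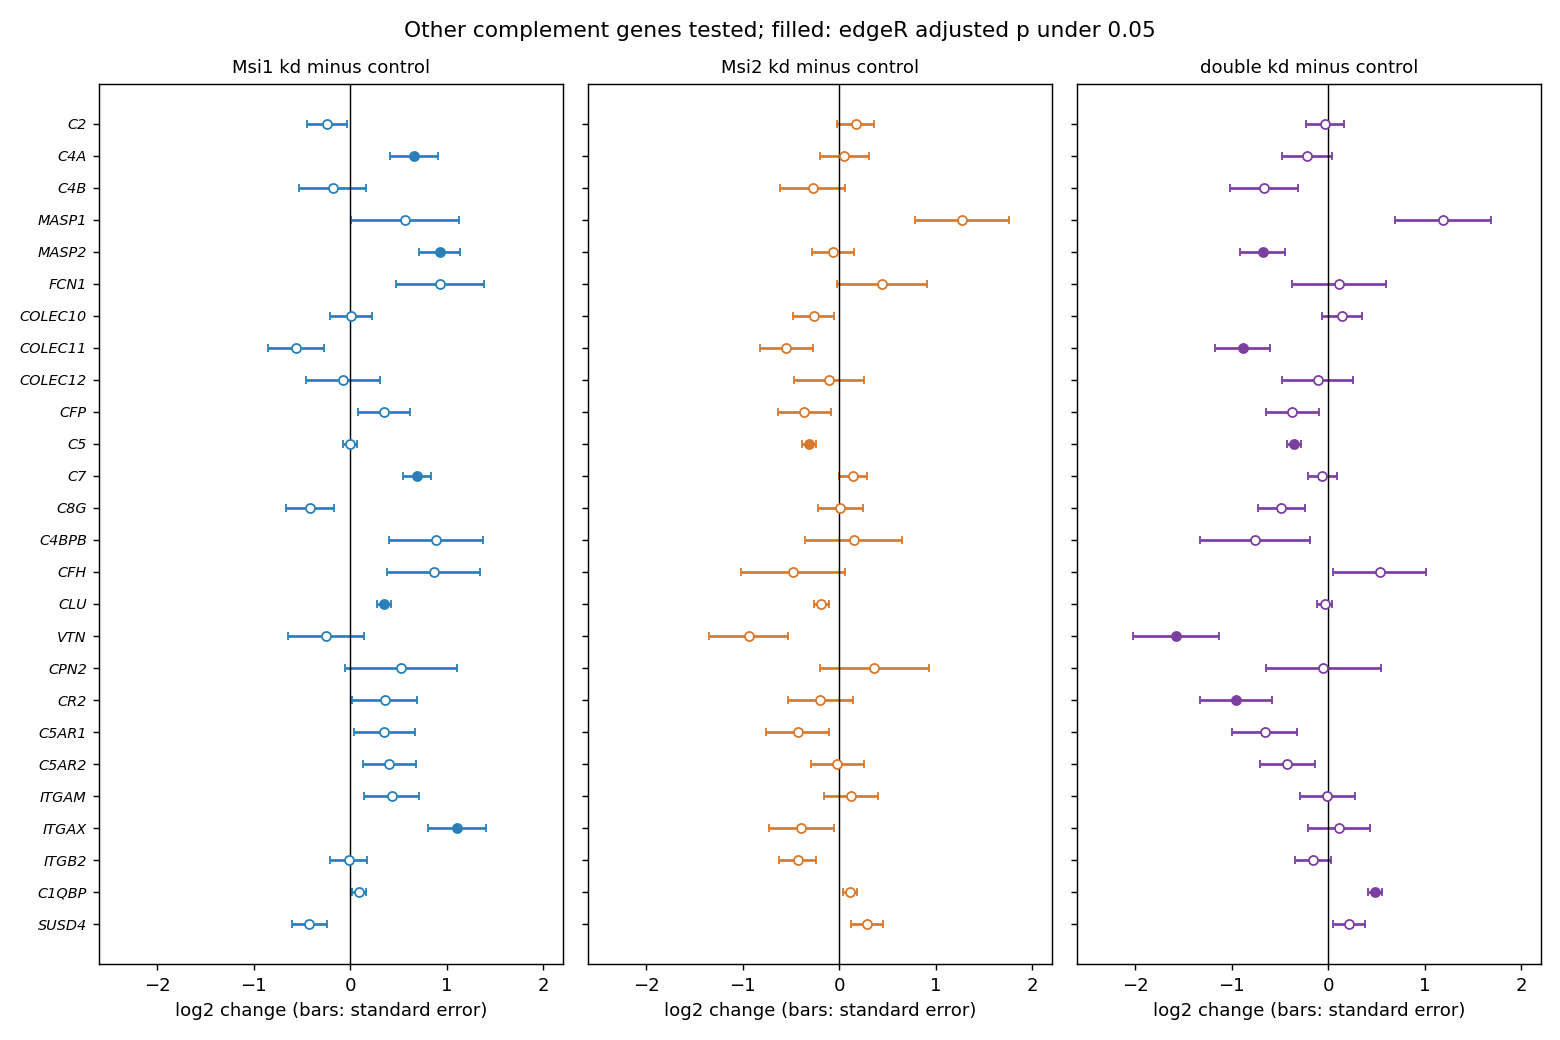
Log2 change with standard error (horizontal axes) of 26 of the 27 tested complement genes outside the 10, in the Msi1, Msi2 and double knockdowns against control, filled where the edgeR adjusted p was under 0.05. There are 5 filled points in the Msi1 panel, 1 in the Msi2 panel and 6 in the double panel.

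Transcription factors, cytokines and cytokine receptors known to induce complement genes formed a second list of 24, of which 23 were tested and the cytokine IL6 was too low. Under Msi1 knockdown 14 rose and 0 fell, under Msi2 knockdown 17 rose and 0 fell, and in the double knockdown 16 rose and 4 fell. These stand beside the 18.5%, 16.7% and 26.6% of all tested genes called higher and the 20.9%, 13.6% and 25.3% called lower. NFKB2, an NF-kB subunit, rose in each, from 69.7 ± 1.9 CPM in control to 106 ± 3, 106 ± 2 and 110.5 ± 7.05 CPM (edgeR adjusted p = 1.64e-07, 3.87e-07 and 4.59e-08). LIFR, a receptor of the interleukin-6 cytokine family, rose from 53.9 ± 6.6 CPM to 149.7 ± 20.98, 84.5 ± 7.9 and 76.6 ± 5.98 CPM (adjusted p = 1.81e-08, 2.05e-04 and 8.11e-04).

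STAT3, the transcription factor below that receptor family, was at 374 ± 18 CPM in control, 412 ± 14 under Msi1 knockdown, where it did not pass, 596 ± 27 under Msi2 knockdown and 561 ± 17 in the double (edgeR adjusted p = 0.104, 4.05e-07 and 7.91e-07). CEBPB and CEBPD, factors of acute-phase genes, rose in the double knockdown, by log2 1.24 ± 0.12 and 1.10 ± 0.14 (edgeR adjusted p = 3.52e-07 and 2.68e-06). Under Msi1 knockdown they rose by 0.86 ± 0.13 and 0.99 ± 0.14. Their calls under Msi2 knockdown, 0.38 ± 0.13 (adjusted p = 0.0314) and 0.38 ± 0.14 (0.0482), were fragile. That of CEBPB was lost without any 1 control replicate (0.0870 to 0.106) or Msi2 knockdown replicate 3 (0.168), and that of CEBPD without any 1 of 8 libraries (up to 0.312). The interferon-gamma receptor chain IFNGR2 rose in each knockdown, by log2 0.49 ± 0.06, 0.32 ± 0.06 and 0.51 ± 0.06. The 4 that fell in the double knockdown were STAT2 (-0.57), IRF9 (-0.37), IL6ST (-0.66) and IFNGR1 (-0.31), named after their values were seen.

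Markers of other cells that make complement were mostly absent. All 10 hepatocyte markers, albumin among them, were under 1 CPM in every library. Of 10 blood cell markers 7 were under 1 CPM in every library, PTPRC, CSF1R and CD163 among them, and the summed level of the list ran from 3.95 to 5.48 CPM in control and from 3.87 to 5.89 CPM in the knockdown libraries. Of 9 fibroblast markers 5 (LUM, PDGFRB, PDGFRA, THY1 and FAP) were under 1 CPM in every library, and the summed level, nearly all from COL1A2 and COL3A1, was 603 to 739 CPM in control, 660.1 to 804 under Msi1 knockdown, 776 to 887 under Msi2 knockdown, with the double knockdown at 549 to 642. The summed level of 5 endothelial markers moved with the Msi1 knockdown, from 7.32 to 8.45 CPM in control to 27.5 to 34.5, beside 13.1 to 13.6 under Msi2 knockdown, with the double knockdown at 20.4 to 22.9, and most of it was CDH5, with VWF, TEK and KDR under 1 CPM in every library. Its part in the complement results was not tested, and in bulk RNA fewer cells of a type and less RNA per cell cannot be told apart.

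The genes whose log2 CPM followed a component most closely over the 12 libraries, among 9424 other genes with a mean of at least 10 CPM, are given as a description. For C3 they were MRC2, MAN1A2 and SLC35E3 (Pearson's r = 0.97, 0.96 and 0.96), for C1R SLC39A7, CTSB and LRP10 (0.99, 0.97 and 0.97) and for C1S SLC39A7, PAM and GGCX (0.98, 0.98 and 0.97). For CFB they were COL3A1, TMEM43 and BCAM (0.99, 0.98 and 0.98). COL3A1 was at 226 ± 27 CPM in control, 385 ± 44 under Msi1 knockdown, 369 ± 26 under Msi2 knockdown and 292 ± 28 in the double knockdown. For CD55 they were GPCPD1, UGCG and ATL2 (0.97, 0.95 and 0.95), and GPCPD1 was at 20.5 ± 1.0, 18.5 ± 0.6, 28.5 ± 1.0 and 20.9 ± 1.3 CPM in the same order of groups.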

How the data were processed

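The authors' deposited table gave estimated counts per gene as whole numbers, with no scaling for depth. Per the submitters' processing notes, the tools were kallisto 0.42.1 and CASAVA 1.4 and the build hg19; their roles, the transcript set, strand and filters were not given in the sources used here. The table has no coordinates; chromosomes, neighbours and promoter windows are RefSeq's on GRCh38.p14, not the build of the files.

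Counts were tested as deposited with edgeR 4.0.16 (R 4.3.3): filterByExpr by group (minimum count 10), TMM factors, 1 model with a mean for each of 4 groups and 8 residual degrees of freedom, robust quasi-likelihood tests, two-sided, and Benjamini-Hochberg adjustment over all tested genes at 0.05. An exact permutation of 3 libraries against 3 cannot go below p = 0.1. CPM used TMM-scaled totals. Standard errors are the log2 change divided by the square root of F. Transcript lengths came from GENCODE 29 (99.3% of tested genes had one). Log2 CPM for correlations and the library trend had 2 counts added.

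The members and gene lists were chosen with earlier results of these data known. Named were all members, MSI1 and MSI2; up to 8 other complement genes called in a comparison with control, with a mean of at least 1 CPM in a group, by smallest p; up to 6 of the inducer list by smallest p; and the 3 genes most correlated with each of 5 members. Alternatives were DESeq2 1.42.0, its size factors, no low-count filter, only the compared groups, a replicate block, thinning to the smallest total, a length correction, the library trend and leaving out each library. The code was tested on simulated data. The result of 1 other complement gene is counted but not reported here by name.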

Additional observations from a re-analysis of the deposited data

Results flagged for a closer look

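For 5 of the 27 tested complement genes outside the 10 the response to one shRNA differed with the presence of the other, by edgeR's test of the non-additivity (what remains of the double knockdown's log2 change once both single-knockdown changes are subtracted), a call that 40.3% of all tested genes had. MASP2 had -1.54 ± 0.30 (adjusted p = 7.14e-04), C7 -0.89 ± 0.19 (0.00172), C4A -0.93 ± 0.34 (0.0396) and C1QBP 0.28 ± 0.10 (0.0347). The fifth, C4BPB, a chain of the C4b-binding protein that limits the classical pathway, had -1.80 ± 0.69 (0.0452), with group means of 0.170 to 0.522 CPM, and is named after its values were seen. Once the trend score was a covariate none of the 5 passed (MASP2 -0.60, adjusted p = 0.471; C7 -0.34, 0.582; C4A -0.50, 0.770; C1QBP -0.04, 0.880; C4BPB -0.71, 0.798). MASP2 and C7 passed without any 1 library, whereas the others did not. C4A lost the call without control replicate 1 or 3, Msi1 knockdown replicate 2, Msi2 knockdown replicate 1 or 3, or double knockdown replicate 1 or 3 (adjusted p from 0.0529 to 0.122). C1QBP lost it without control replicate 1 or 3, Msi1 knockdown replicate 2 or 3, Msi2 knockdown replicate 1 or 2, or double knockdown replicate 1 or 2 (0.0827 to 0.119). C4BPB lost it without control replicate 2 or 3, Msi1 knockdown replicate 2, Msi2 knockdown replicate 2, or double knockdown replicate 1 or 3 (0.0647 to 0.191), and under DESeq2 (0.0556).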

How the results depend on the processing

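In the 10 genes the difference between the Msi2 and the Msi1 knockdown kept 7 calls under DESeq2 and with the replicate block, and had 6 to 8 when 1 library was left out. Of the 48 other complement genes, the 5 called under Msi1 knockdown became 4 to 6 without 1 library and stayed at 5 with the replicate block. The 1 called under Msi2 knockdown became 2 without the low-count filter, with only the compared groups, with the replicate block and with thinned libraries, 3 with the length correction, 5 once the trend score was a covariate and 1 to 3 without 1 library. The 7 called in the double knockdown stayed at 7 with the replicate block, became 2 with thinned libraries and 4 to 9 without 1 library; thinning left 17 of the genes testable. The cause of the other shifts was not tested. Same-numbered libraries did not deviate together throughout (r of deviations from -0.54 to 0.70 over the pairs), so the block is given only here. Once the trend score was a covariate, the sign turned for C1RL (0.024) and CFI (0.18) in the double knockdown against control, CD46 in the double against the Msi1 knockdown (0.15), the non-additivity of CD46 (0.050), that of CFD (-0.24) and that of C1QBP (-0.043). Of 2196 values of 111 single-gene results under alternatives, 2061 kept direction and call or moved by less than the spread between replicates. Non-additivity needs all groups and has no fit with only the compared groups. CFI, at 5 counts in the shallowest library, was not testable after thinning.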

Other observations

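OSMR, the receptor chain for the interleukin-6 family cytokine oncostatin M, belonged to the list of inducers but not to the genes its rule named, and was singled out after its values were seen. It was at 179 ± 18 CPM in control, 278 ± 36 under Msi1 knockdown, 266 ± 21 under Msi2 knockdown and 174 ± 14 in the double knockdown (mean ± SD, n = 3), with both single knockdowns above control and the double knockdown, as for C3. Its log2 changes against control were 0.64 ± 0.09 and 0.57 ± 0.09 in the single knockdowns (edgeR adjusted p = 2.18e-05 and 1.06e-04) and -0.04 ± 0.09 in the double (0.724). Its non-additivity was -1.25 ± 0.13 (adjusted p = 2.91e-06), and -0.68 ± 0.10 (2.80e-05) once the trend score was a covariate, under which 592 of 15021 genes were called. LIFR, of the same receptor family, had a non-additivity of -1.62 ± 0.15 without the trend covariate (adjusted p = 2.03e-06). REL, also of that list and named after its values were seen, had both single knockdowns above control and the double knockdown too. Its log2 changes were 0.46 ± 0.12, 0.45 ± 0.12 and 0.001 ± 0.117. Its non-additivity, again without the trend covariate, was -0.91 ± 0.16 (edgeR adjusted p = 5.10e-04). Of the 23 tested inducers 13 were called lower and 0 higher for non-additivity without the trend covariate, beside 19.1% and 21.3% of all tested genes (40.3% in either direction).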
